A study of Mus musculus with 12 samples.

Results

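Whole brain of mice lacking Il18 was compared between 12 and 6 weeks of age. The groups compared were 6 of the 12 arrays of the series, chosen by the genotype and age in their labels. They held 3 biological replicates of the Il18 knockout at 12 weeks and 3 at 6 weeks. The other 6 arrays hold 3 wild-type brains of each age and are used here as the reference for the age change. These wild-type arrays also entered the fits unless stated otherwise. The spread behind the standard errors and p-values was thus estimated from wild-type and knockout arrays together. All animals carry the strain label BALB/c and were untreated, and the labels name neither the knockout allele nor the sex. Each array measured total RNA of a whole brain, labelled with the dye Cy3 from an oligo-dT primer, on Agilent probes of mouse transcripts. The labels do not say that the replicates were raised or dissected separately beyond calling them biological, so the p-values measure the spread between these samples.

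IL-18 is a cytokine of the IL-1 family. It is made as a precursor that caspase-1 cleaves within inflammasomes, and it acts through a receptor that signals by Myd88 to NF-kappaB and drives interferon-gamma production in lymphocytes. Between 6 and 12 weeks the mouse brain passes from adolescence to adulthood, a time when myelination slows and the cholesterol that myelin needs is made at a lower rate. Immediate early genes are transcription factors and effectors that neurons switch on within minutes of activity, and their transcripts, like those of circadian clock genes, also move with the hour and with handling. The hour of collection is not in the labels.

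Levels are log2 of the processed signal minus the log2 of the array's own 75th percentile, so 0 is the 75th percentile and a difference of 1 is 2-fold. The knockout arrays had 65.9% to 69.4% of non-control spots well above background. The arrays lay on 2 slides. Replicates 1 and 2 at 6 weeks were on slide 1 with every wild-type array, and replicate 3 at 6 weeks was on slide 2 with every 12-week knockout array. The median local background was 27 to 28 on the knockout arrays of slide 1 and 40 to 47 on those of slide 2. The first principal component of the 6 knockout arrays, 52.7% of their variance, placed 6-week replicates 1 and 2 at -35.7 and -42.4, replicate 3 at 8.03 and the 12-week arrays at 21.4 to 26.6. Replicate 3 thus stood nearer to the 12-week arrays than to the arrays of its own age, and with slide as a block the change rests on that 1 array. Changes of the genes below are therefore given also against 6-week replicate 3 alone, the value that a fit with slide as a block returns. Both changes share the 12-week arrays and replicate 3, so the second is not independent of the first. Slide was also fitted as a random block, with its correlation estimated from the data (0.364).

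The targeted gene read lower on every array labelled knockout than on the wild-type arrays. Its knockout signal was still far above the lowest signal well above background, -6.78 to -5.74 on the knockout arrays. The Il18 probe (chr9:50389761-50389820 in mm9) read -0.28, -0.17 and -0.20 at 6 weeks and -0.20, -0.23 and -0.32 at 12 weeks in the knockout. In wild type it read 1.51 to 1.93 on the 6 arrays. All knockout arrays lay below all wild-type arrays, and the signal left in the knockout did not pass the test for age (change -0.03 ± 0.10, SE; adjusted p = 0.87). Among defining markers, all 5 of neurons, 4 of astrocytes, 4 of oligodendrocytes and 4 of microglia were above background on all 6 knockout arrays. So were the markers of choroid plexus (4 of 4), ependyma (3 of 3) and meninges (4 of 4). The same held for markers of lymphocytes (3 of 3), erythroid cells (3 of 4) and neutrophils (3 of 4). It also held for some of skeletal muscle (2 of 4), pituitary (1 of 3) and pineal (1 of 3). Presence above background thus did not set brain markers apart from the others. The 4 sex check genes tested, all Y-linked, differed in how steady they were. Ddx3y read 0.99 to 1.34 on the 6 arrays and Uty -3.96 to -3.43. Eif2s3y read -1.68, 0.08 and 0.71 at 6 weeks and 0.89, 0.85 and 0.92 at 12 weeks. Kdm5d was above background on all 3 arrays at 6 weeks and on 1 of 3 at 12 weeks (change -1.14). None of the 4 passed the test.

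Over 25913 genes tested, 622 (2.4%) were called in the knockout at an adjusted p under 0.05 (limma, Benjamini-Hochberg), 345 higher at 12 weeks (1.33%) and 277 lower (1.07%). Of the 622, 122 rose and 124 fell at least 1.5-fold. With each array scaled to its median, the calls split into 405 higher and 126 lower. In each of the 622 the 3 arrays of one age lay wholly apart from those of the other, which held for 26.7% of all genes tested (12% higher, 14.7% lower). With slide as a block, 12 genes were called (0.0463%), 3 higher (0.0116%) and 9 lower (0.0347%), and 4 of the 12 were among the 622. With slide as a random block 16 were called, 5 higher (0.0193%) and 11 lower (0.0424%). The unadjusted p was under 0.05 for 7102 genes without the block and for 2163 with it. The count without the block rested on single arrays: it was 7420 without 6-week replicate 3 (16.7% of all genes higher and 11.9% lower), 16 without replicate 1 and 15 without replicate 2 at 6 weeks, and 26, 532 (1.17% higher, 0.888% lower) and 21 without replicates 1, 2 and 3 at 12 weeks. Without 6-week replicate 3, the 6-week knockout arrays all lay on slide 1 and the 12-week ones on slide 2. Age and slide cannot be told apart in that fit, here or in its list counts below. With the 6 knockout arrays alone and the spread estimated without wild type, no gene was called, at 5376 with an unadjusted p under 0.05.

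The 4 genes called in both fits were Inhba and Slc4a11, which rose, and Atf3 and the unnamed transcript AI314604, which fell. Inhba encodes the beta-A subunit of activins, secreted ligands of the TGF-beta family that neuronal activity induces. It read 0.39, 0.27 and 0.17 at 6 weeks and 1.26, 1.13 and 1.26 at 12 weeks, a rise of 0.94 ± 0.09 (SE; adjusted p = 0.0057), or 1.05 ± 0.12 in the blocked fit (adjusted p = 0.0445). Its 6-week arrays differed little among themselves across both slides, and the 12-week arrays lay clear above them. Genes are called more readily where the arrays of an age lie close together. This closeness is thus a description, and the part of slide was not tested. Slc4a11, a membrane transporter of the bicarbonate transporter family, read -2.89, -2.91 and -2.58 at 6 weeks and -1.71, -1.91 and -1.67 at 12 weeks. Its rise was 1.03 ± 0.10 (adjusted p = 0.0057), and 0.82 ± 0.10 with the block (adjusted p = 0.0445). AI314604 fell by 0.78 ± 0.08 (adjusted p = 0.0057), or by 0.83 ± 0.10 in the blocked fit (adjusted p = 0.0445), and its wild-type change was -0.90. Of the genes called without the block that are described below, Atf3 alone was called with it. The other 8 genes called with the block, Depdc7, Plekhh2, Mgst2, Tas2r140, Best2, Armc7 and a pair of transcripts without a gene symbol, were named after their values were seen. In each, 6-week replicates 1 and 2 lay nearer to the 12-week mean than to replicate 3, so the call rested on the level of that 1 array. Depdc7, for instance, read -4.09 and -4.07 in replicates 1 and 2, -2.36 in replicate 3 and -4.29, -4.48 and -4.68 at 12 weeks.

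Many immediate early genes fell. Of 22 listed, all were tested, 10 fell and none rose, against 1.07% and 1.33% of all genes. Under the random block 2 fell, against 0.0424% of all genes, and under the fixed block 1, against 0.0347%. The median change of the list was -0.62, and -0.48 against replicate 3, beside medians of -0.00 and -0.05 over all genes. At 12 weeks every array lay below every 6-week array for 16 of the 22 genes, against 14.7% of all genes, and below replicate 3 for 17, against 36.1% (above it for 1, against 20.2%). The summed level of the 22 probes was 7.25 to 7.40 on the 6-week arrays and 6.57 to 6.83 on the 12-week arrays, with no overlap.

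**Figure D1:**
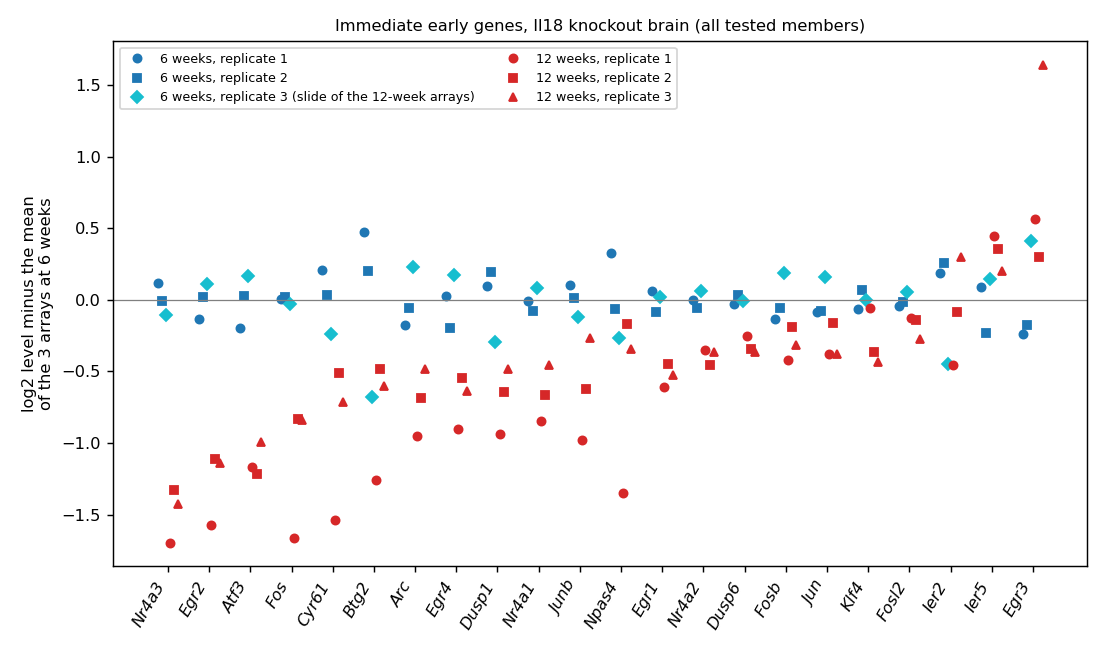
Level of each of the 22 immediate early genes on each knockout array, as log2 difference from the mean of the 3 arrays at 6 weeks (vertical axis), genes ordered by their change; points are single arrays. For 16 genes the 12-week arrays (red) all lie below the 6-week arrays, and Egr3, the right-most gene, has a change of 0.83 that was not called.

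The promoters of 3 members that fell are shown, as the 250 bases before the transcription start in RefSeq (build GRCm38.p6, strand of the gene, 5′ to 3′). Capitals mark matches to the cAMP response element TGACGTCA or to the CArG box that serum response factor binds, searched on both strands.
Atf3, chr1:191183334-191183583, minus strand: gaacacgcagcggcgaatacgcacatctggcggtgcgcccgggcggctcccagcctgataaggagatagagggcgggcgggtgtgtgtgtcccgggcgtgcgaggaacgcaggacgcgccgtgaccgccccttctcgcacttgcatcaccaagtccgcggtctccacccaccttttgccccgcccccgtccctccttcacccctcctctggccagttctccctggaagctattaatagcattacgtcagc
Egr2, chr10:67537619-67537868, plus strand: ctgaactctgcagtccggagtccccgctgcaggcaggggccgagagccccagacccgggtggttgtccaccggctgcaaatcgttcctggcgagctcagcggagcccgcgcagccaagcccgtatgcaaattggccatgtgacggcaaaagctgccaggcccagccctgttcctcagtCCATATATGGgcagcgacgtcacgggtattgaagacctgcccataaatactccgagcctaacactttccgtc
Dusp1, chr17:26508473-26508722, minus strand: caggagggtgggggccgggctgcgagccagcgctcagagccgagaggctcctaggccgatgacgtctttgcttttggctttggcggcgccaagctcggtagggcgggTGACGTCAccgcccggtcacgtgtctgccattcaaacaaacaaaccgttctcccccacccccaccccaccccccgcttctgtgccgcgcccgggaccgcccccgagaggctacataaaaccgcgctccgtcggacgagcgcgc
The Egr2 window shown holds a CArG box and the Dusp1 window a TGACGTCA, and the Atf3 window holds no exact match to either. Egr2 has several annotated starts, and its window at chr10:67535249-67535498 holds neither motif. Only exact matches were searched, so near matches are not marked. Promoters were on hand for 18 of the 22 genes. A TGACGTCA stood in 2 of the 18 (Btg2 and Dusp1), against 1.77% of 27025 genes, and a CArG box in 1 (Egr2, 5.56%), against 1.62%. These are matches of letters and say nothing of binding.

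Among the transcription factors of the list, Atf3, a stress- and activity-induced repressor, read -2.09, -1.86 and -1.72 at 6 weeks and -3.05, -3.10 and -2.88 at 12 weeks (probe chr1:192994547-192994606, mm9). All 12-week arrays lay more than 1 log2 unit below replicate 3. The fall was 1.12 ± 0.12 (SE; adjusted p = 0.00673), or 1.29 ± 0.16 in the blocked fit (adjusted p = 0.0445). Egr2, a zinc-finger factor, read 1.44, 1.59 and 1.68 at 6 weeks and -0.01, 0.46 and 0.43 at 12 weeks. It fell by 1.28 ± 0.15 (adjusted p = 0.00939), and by 1.39 ± 0.22 against replicate 3, where the adjusted p was 0.111. Fos, a partner of Jun proteins in the AP-1 dimer, read 2.08, 2.09 and 2.04 at 6 weeks and 0.40, 1.24 and 1.23 at 12 weeks. The fall was 1.11 ± 0.19 (adjusted p = 0.0309), or 1.08 ± 0.28 with the block (adjusted p = 0.36).

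The orphan nuclear receptors Nr4a1, Nr4a2 and Nr4a3 all fell. Nr4a1 read 5.25, 5.18 and 5.34 at 6 weeks and 4.4, 4.59 and 4.8 at 12 weeks, a fall of 0.66 ± 0.11 (adjusted p = 0.0293), or 0.74 ± 0.15 with the block (adjusted p = 0.204). Nr4a3 was the 1 member of the list that entered the test only through its 6-week arrays, so a lower level at 12 weeks was built into its selection. The other 9 that fell were above background on all 6 arrays. Nr4a3 was not well above background on any 12-week array, its level there is a bound, and it was at least 1.91-fold higher at 6 weeks. That bound sets the 6-week mean against the lowest signal well above background on each 12-week array. Nr4a2 fell by 0.39 ± 0.07, or by 0.45 ± 0.09 against replicate 3.

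Of the effectors, Arc, a postsynaptic protein that regulates AMPA receptors, read 4.98, 5.09 and 5.38 at 6 weeks and 4.2, 4.47 and 4.67 at 12 weeks. It fell by 0.71 ± 0.13 (adjusted p = 0.0329), or by 0.93 ± 0.16 in the blocked fit (adjusted p = 0.156). Dusp1, a phosphatase that switches off MAP kinases, fell by 0.69 ± 0.14, and by 0.40 ± 0.15 against replicate 3. The remaining members called were Egr1 (-0.53, and -0.55 against replicate 3) and Egr4 (-0.70 and -0.87). Egr3, another member of that family, changed by 0.83 with an adjusted p of 0.147. Of the list, 1 gene (Atf3) was called with slide as a block, and 13 had an unadjusted p under 0.05 there, as had 2163 of all 25913 genes. The number of falls was 1 to 3 when 6-week replicate 1 or 2 or 12-week replicate 1 or 3 was left out (0.0309% to 0.0695% of all genes fell). It was 8 without 12-week replicate 2 (0.888% of all genes fell) and 13, with 1 rise, without 6-week replicate 3 (11.9% fell, 16.7% rose). The median of the list stayed between -0.46 and -0.74.

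The median change of the same 22 genes between 6 and 12 weeks in wild type was 0.45, with 2 called higher and none lower (over all genes 0.44% were called higher and 0.232% lower in wild type). The summed level was 6.57 to 6.69 in wild type at 6 weeks and 6.93 to 7.07 at 12 weeks, so the older brains were lower in the knockout and higher in wild type, and the 6-week knockout arrays were the highest of the 4 groups. For Atf3 the wild-type arrays read -3.48, -3.72 and -3.33 at 6 weeks and -2.17, -2.19 and -2.02 at 12 weeks, a rise of 1.39 ± 0.12 (adjusted p = 0.00087). The difference of the age change between the genotypes was tested with slide as a block, since all wild-type arrays share slide 1. It passed for 16 genes (0.0617%), 5 higher (0.0193%) and 11 lower (0.0424%) in the knockout, and for 2 of the 22 immediate early genes. These were Atf3 (-2.68 ± 0.19, adjusted p = 0.00219) and Arc (-1.49, adjusted p = 0.0454). Egr2 stood at -1.94 (adjusted p = 0.0518).

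The circadian clock is a loop in which Arntl (Bmal1) and Clock drive the Per and Cry repressors, the nuclear receptors Nr1d1 and Nr1d2, and output factors such as Dbp. Of 20 members tested, 4 rose in the knockout (Nr1d1, Per2, Bhlhe41 and Dbp, against 1.33% of all genes) and 1 fell (Arntl, against 1.07%), with a list median of 0.03. None was called with the block, fixed or random. Arntl, the activator, read 1.59, 1.5 and 1.52 at 6 weeks and 1.30, 1.30 and 1.26 at 12 weeks, a fall of 0.25 ± 0.05 (adjusted p = 0.0454), or 0.23 ± 0.07 with the block (adjusted p = 0.395). Nr1d1, which represses Arntl, read -0.71, -0.65 and -0.80 at 6 weeks and 0.18, -0.17 and 0.38 at 12 weeks. It rose by 0.85 ± 0.14 (adjusted p = 0.0293), and by 0.92 ± 0.20 against replicate 3 (adjusted p = 0.252). Per2, a repressor of the loop, rose by 0.49 ± 0.09 (adjusted p = 0.0328), or by 0.46 ± 0.12 against replicate 3. Dbp, an output activator, rose by 0.62 ± 0.13 (adjusted p = 0.0451), but its change was 0.35 ± 0.15 against replicate 3 (adjusted p = 0.582). Bhlhe41 (Dec2), another repressor, rose by 0.58 ± 0.12, and its change was 0.30 ± 0.11 against replicate 3 (adjusted p = 0.509). The second probe of Bhlhe41 changed by 0.24 with an adjusted p of 0.415.

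In wild type Arntl rose by 0.50 (adjusted p = 0.00394), Per2 fell by 0.56 (adjusted p = 0.0247) and Dbp fell by 0.81 (adjusted p = 0.0264). Of the 622 genes called in the knockout and the 174 called in wild type, 27 were called in the same direction (4.34% and 15.5% of the lists) and 4 in opposite directions (0.643% and 2.3%). Those 4 were Arntl, Atf3, Dbp and Per2, named after their values were seen. The difference between the genotypes passed with slide as a block for Arntl (-0.73 ± 0.08, adjusted p = 0.0261) and for Nfil3, a repressor of Dbp targets (-0.95, adjusted p = 0.0462). It was 1.02 for Per2 (adjusted p = 0.073) and 1.16 for Dbp (adjusted p = 0.0774). Without the block it passed for both (adjusted p = 0.012 and 0.0212). Within the knockout, no clock gene was called without 6-week replicate 1 or 2 or 12-week replicate 1 or 3, 2 rose without 12-week replicate 2 (1.17% of all genes), and 7 rose and 3 fell without 6-week replicate 3. In that last fit 16.7% of all genes rose and 11.9% fell, so 3 of 20 falls is near the background. The part of slide and of the hour of collection in these values was not tested.

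**Figure D2:**
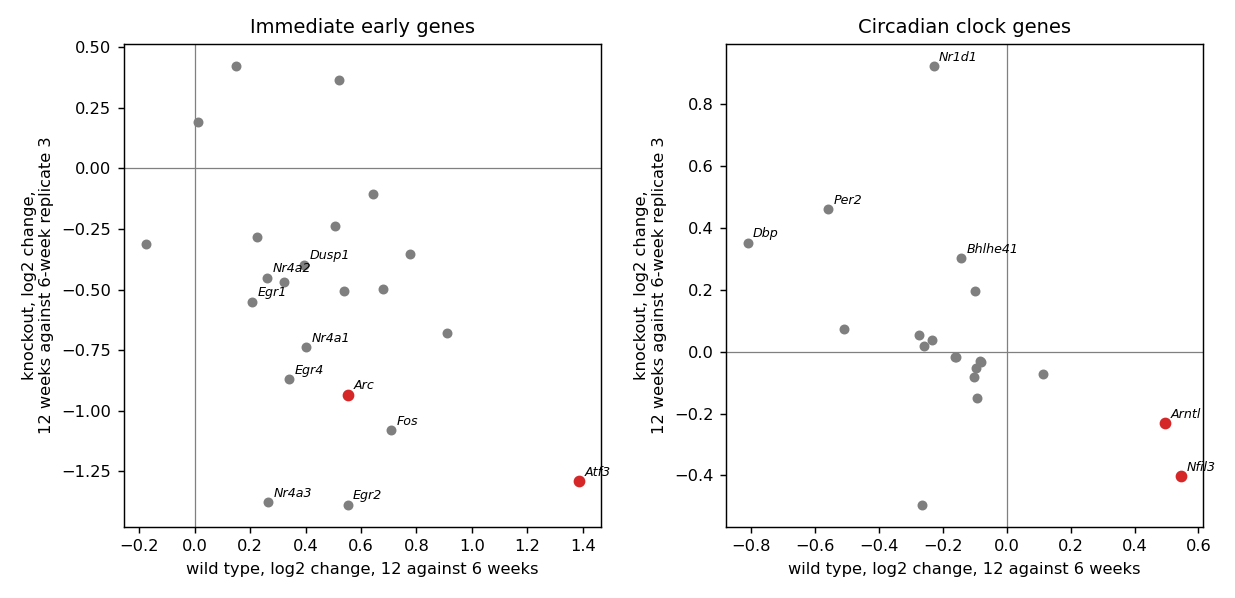
Change in log2 level between 6 and 12 weeks in wild type (horizontal axis) and in the knockout against 6-week replicate 3 (vertical axis) for the 22 immediate early and 20 clock genes; each point is a gene. Red points passed the test of the difference between genotypes with slide as a block (Arc and Atf3, Arntl and Nfil3); named grey points were called in the knockout without the block.

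The E-box CACGTG that Arntl and Clock bind stood in the 250 bases before the start of 5 of 18 clock genes on hand (27.8%), against 6.86% of 27025 genes. Of the members called, it was found in Bhlhe41, shown with the match in capitals.
Bhlhe41, chr6:145865421-145865670, minus strand, GRCm38.p6: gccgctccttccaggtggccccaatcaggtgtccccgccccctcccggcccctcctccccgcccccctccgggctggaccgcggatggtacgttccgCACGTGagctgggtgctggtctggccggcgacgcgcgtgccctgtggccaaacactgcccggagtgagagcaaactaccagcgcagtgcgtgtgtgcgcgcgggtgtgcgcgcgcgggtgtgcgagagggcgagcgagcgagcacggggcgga
The other matches were in Ciart, Cry1, Per1 and Tef, none of which was called.

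Some myelin genes fell while others did not. Of 20 genes of myelin and mature oligodendrocytes, all tested, 7 fell and none rose, against 1.07% and 1.33% of all genes. Under the random block 2 fell, against 0.0424% of all genes, and under the fixed block none was called. Those that fell included makers of myelin lipids and membrane proteins of its tight junctions and rafts. Tspan2, a tetraspanin of oligodendrocytes, read 3.80, 3.85 and 3.84 at 6 weeks and 3.12, 3.29 and 3.07 at 12 weeks. The fall was 0.67 ± 0.07 (adjusted p = 0.0057), and 0.68 ± 0.09 against replicate 3 (adjusted p = 0.0555). Ugt8a, which makes galactosylceramide, read 1.75, 1.76 and 1.71 at 6 weeks and 1.03, 1.19 and 1.09 at 12 weeks, a fall of 0.64 ± 0.08 (adjusted p = 0.012), or 0.61 ± 0.11 against replicate 3 (adjusted p = 0.173). Mal, a proteolipid of myelin rafts, read 5.81, 5.92 and 5.99 at 6 weeks and 5.29, 5.40 and 5.22 at 12 weeks, a fall of 0.61 ± 0.08 (adjusted p = 0.0121), or 0.69 ± 0.10 against replicate 3 (adjusted p = 0.0707). Opalin, a membrane glycoprotein of mature oligodendrocytes, fell by 0.70 ± 0.11 (adjusted p = 0.0285), or by 0.65 ± 0.15 against replicate 3 (adjusted p = 0.317). The other 3 that fell were Cldn11, the claudin of myelin tight junctions, Aspa, which frees acetate from N-acetylaspartate, and Fa2h, which hydroxylates the fatty acids of myelin sphingolipids. Against replicate 3 their changes were -0.62, -0.37 and -0.58.

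Mbp, Mog and Mag, which encode structural and adhesion proteins of myelin, did not pass the test. Mbp changed by 0.10 (adjusted p = 0.58), Mog by -0.08 and Mag by 0.12. The list median was -0.14, and -0.34 against replicate 3, where 19 of 20 genes were negative, as were 62.3% of all genes. It was 0.01 when replicate 3 was left out, and its number of falls then was 8 with 4 rises (11.9% and 16.7% of all genes). Replicates 1 and 2 at 6 weeks read lower than replicate 3 for these 3 genes, and Mbp and Mag changed sign between the references. Leaving out 6-week replicate 1 or 2 left 2 and 1 falls (0.0386% and 0.0309% of all genes). Leaving out 12-week replicate 1, 2 or 3 left 1, 7 and 1 (0.0695%, 0.888% and 0.0463% of all genes). In wild type the list median was -0.33, with 4 genes called lower, against 0.232% of all genes. Among them were Tspan2 (-0.43, adjusted p = 0.0215) and Ugt8a (-0.64, adjusted p = 0.00899). For these, the age change did not pass the test of a difference between the genotypes (Tspan2 -0.25 and Ugt8a 0.03 with the block, adjusted p = 0.531 and 0.97). Opalin went the other way in wild type, with a change of 0.37 that was not called (adjusted p = 0.14). Its difference between the genotypes was -1.07 without the block (adjusted p = 0.0308) and -1.02 with it (adjusted p = 0.146). In whole brain, fewer oligodendrocytes and less of a transcript per cell cannot be told apart.

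Of 12 genes of oligodendrocyte precursors and newly formed oligodendrocytes, 2 fell and none rose, against 1.07% and 1.33% of all genes, and none was called with slide as a random or a fixed block. Neu4, a sialidase, read -2.69, -2.58 and -2.85 at 6 weeks and -3.49, -3.67 and -3.54 at 12 weeks, a fall of 0.86 ± 0.11 (adjusted p = 0.0135), or 0.71 ± 0.15 against replicate 3 (adjusted p = 0.21). Enpp6, a choline phosphodiesterase of newly forming oligodendrocytes, fell by 0.67 ± 0.12 (adjusted p = 0.0322) in the knockout, by 0.64 ± 0.18 against replicate 3, and by 0.87 in wild type (adjusted p = 0.0136). Its second probe gave a fall of 0.34 with an adjusted p of 0.0554. Of 17 cell cycle genes tested, 3 fell and none rose, against 1.07% and 1.33% of all genes, and none was called with slide as a random or a fixed block. Cdk1, the mitotic kinase, fell by 0.70 ± 0.12, Rrm2, a subunit of ribonucleotide reductase, by 0.36 ± 0.07, and Ccna2, an S-phase cyclin, by 0.30 ± 0.06. Against replicate 3 their changes were -0.69, -0.28 and -0.34. Their wild-type changes were -0.47, -0.20 and -0.22, none called. Cdk1 read -5.65, -5.60 and -5.67 on the 12-week knockout arrays. The lowest signal well above background there was -5.95, -5.91 and -5.83, so the size of its fall is uncertain. No cell cycle gene of the list was called without 6-week replicate 1 or 2, or without 12-week replicate 1 or 3.

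**Figure D3:**
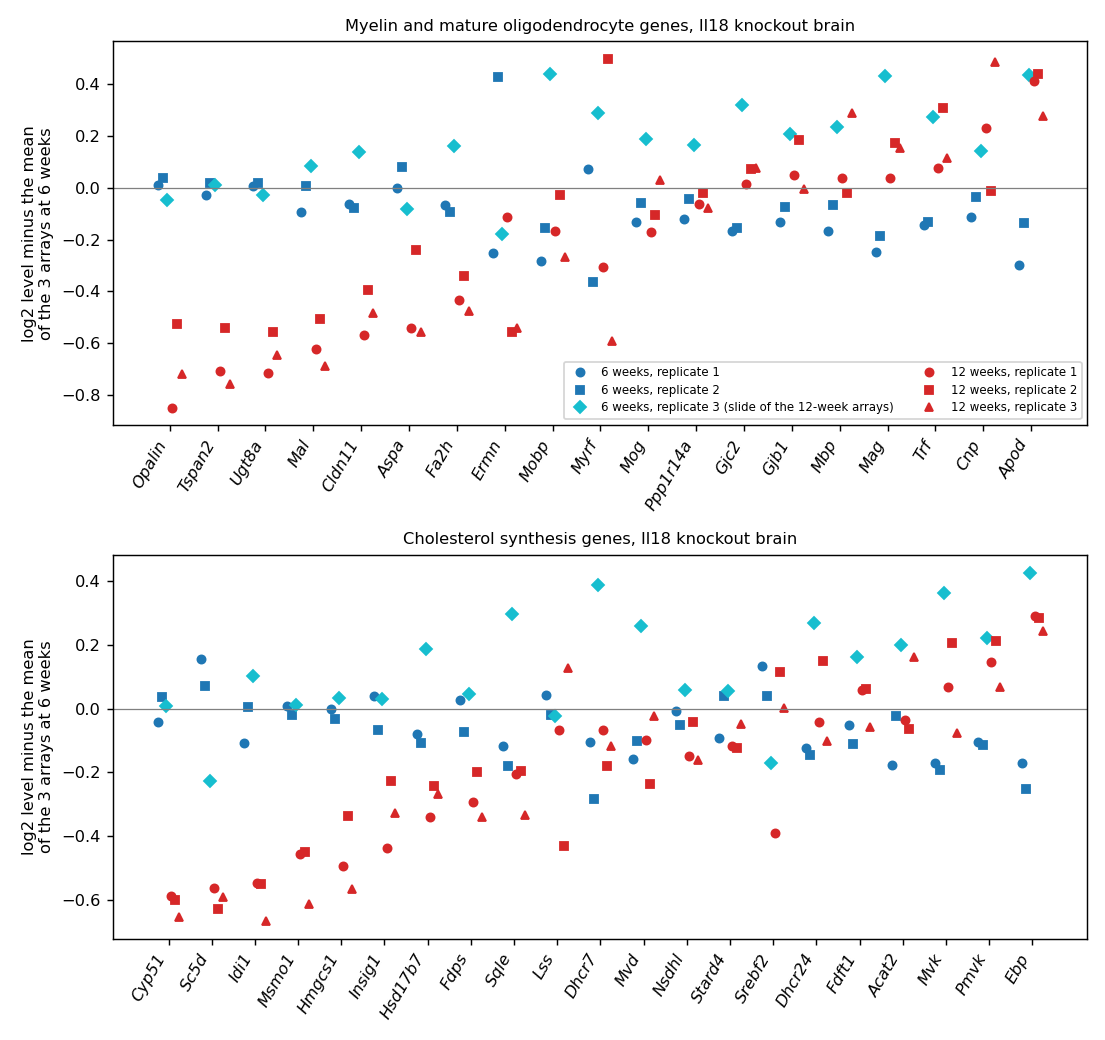
Level of the myelin genes (upper panel) and cholesterol genes (lower panel) shown on each knockout array, as log2 difference from the mean of the 3 arrays at 6 weeks (vertical axis); points are single arrays. At the left the 12-week arrays (red) lie below all 6-week arrays, and toward the right 6-week replicate 3 (cyan) lies above replicates 1 and 2 (blue), with the 12-week arrays between or beside them.

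Several genes of cholesterol synthesis fell. Of 23 members, all tested, 6 fell and none rose, against 1.07% and 1.33% of all genes. None was called with the block, fixed or random. The median change was -0.12, and -0.33 against replicate 3, below which all 12-week arrays lay for 21 of the 23 genes, against 36.1% of all genes. At the entry of the pathway, Hmgcs1, which makes HMG-CoA, fell by 0.47 ± 0.09 (adjusted p = 0.0371), or by 0.50 ± 0.13 against replicate 3. Idi1, which isomerises isopentenyl diphosphate, read 2.93, 3.04 and 3.14 at 6 weeks and 2.49, 2.48 and 2.37 at 12 weeks. It fell by 0.59 ± 0.09 (adjusted p = 0.0285), and by 0.69 ± 0.12 against replicate 3 (adjusted p = 0.162). Farther down, Msmo1 (named Sc4mol in the files), a sterol C4-methyl oxidase, read 4.54, 4.51 and 4.55 at 6 weeks and 4.08, 4.08 and 3.92 at 12 weeks. The fall was 0.51 ± 0.08 (adjusted p = 0.0274), or 0.52 ± 0.11 against replicate 3. Sc5d, a sterol desaturase, fell by 0.60 ± 0.10 and Cyp51, the lanosterol demethylase, by 0.62 ± 0.11. Against replicate 3 the change of Sc5d was -0.37 and that of Cyp51 -0.62. Srebf2, the factor that drives these genes, changed by -0.09 (adjusted p = 0.68). No member of the list was called in wild type, where its median was -0.03, and none passed the test of the difference between genotypes. No member was called when 6-week replicate 1 or 2 or 12-week replicate 1 or 3 was left out, 6 fell without 12-week replicate 2 (0.888% of all genes), and 8 fell and 2 rose without 6-week replicate 3 (11.9% and 16.7% of all genes).

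Several genes of antigen presentation and complement rose. Of 13 tested, 7 rose and none fell, against 1.33% and 1.07% of all genes, with a median of 0.49, and of 0.42 against replicate 3. None was called with the block, fixed or random. The summed level was 4.74 to 4.84 on the 6-week arrays and 5.03 to 5.05 on the 12-week arrays. Tap1, 1 of the 13 and not among the 7 that rose, entered the test only through its 12-week arrays. A higher level at 12 weeks was thus built into its selection. H2-Eb1, a beta chain of MHC class II, read -0.68, -0.77 and -0.46 at 6 weeks and 0.16, 0.10 and 0.02 at 12 weeks. It rose by 0.73 ± 0.09 (adjusted p = 0.012), and by 0.56 ± 0.10 against replicate 3 (adjusted p = 0.173). H2-Ab1, another class II beta chain, read -0.85, -0.99 and -0.33 at 6 weeks and 0.28, 0.20 and 0.25 at 12 weeks, a rise of 0.96 ± 0.16 (adjusted p = 0.0293), with a change of 0.57 ± 0.14 against replicate 3. Its second probe also rose, by 0.96 (adjusted p = 0.0149). H2-Aa, the partner alpha chain, rose by 1.09 ± 0.21 and H2-D1, a class I heavy chain, by 0.51 ± 0.09. Psmb9, a subunit of the immunoproteasome, rose by 0.38 ± 0.07, C4b, complement component 4, by 0.49 ± 0.10 and Serping1, the C1 inhibitor, by 0.48 ± 0.10. Against replicate 3 the changes were 0.91 for H2-Aa, 0.47 for H2-D1, 0.24 for Psmb9, 0.42 for C4b and 0.34 for Serping1. B2m, the light chain of class I, changed by 0.00. H2 genes are close in sequence, so the gene behind each H2 probe is uncertain. In wild type the median was 0.45, with 3 called higher, against 0.44% of all genes. Among them was H2-Eb1 (0.96, adjusted p = 0.00201), and no member passed the test of the difference between the genotypes. Leaving out 6-week replicate 1 or 2 or 12-week replicate 1 left no member called. Leaving out 12-week replicate 3 or 2 left 1 and 5 (0.0347% and 1.17% of all genes rose). Without 6-week replicate 3, 9 rose (16.7% of all genes). The medians of these fits ran from 0.47 to 0.53.

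Few genes of immune cells were called, and over all genes 1.33% were called higher and 1.07% lower. Of 19 microglia and macrophage genes, 1 rose, C1qa, which encodes a chain of complement C1q (0.41 ± 0.09, adjusted p = 0.0436; change against replicate 3 of 0.28), with a list median of 0.11. None of 22 interferon-stimulated, 7 lymphocyte or 9 neutrophil genes was called. The summed level of the lymphocyte genes was 2.77 to 3.21 at 6 weeks and 2.91 to 3.20 at 12 weeks. Of 14 genes of the IL-18 and inflammasome list tested, Gsdmd, the pore former of pyroptosis, rose by 0.28 ± 0.06 (adjusted p = 0.048) and Casp4, the caspase of the non-canonical inflammasome, fell by 0.73 ± 0.17 (adjusted p = 0.0479). Against replicate 3 their changes were 0.26 and -0.44. The second probe of Casp4 gave -0.37 with an adjusted p of 0.185. Casp1, which cleaves the IL-18 precursor, changed by 0.19, Il18bp, its secreted inhibitor, by 0.12, Myd88 by 0.19 and Pycard by 0.11, none called.

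Some genes of the linings of the brain rose at 12 weeks. Of the 13 tested genes of ependyma and motile cilia, 5 rose and none fell, against 1.33% and 1.07% of all genes, with a median of 0.38, and of 0.28 against replicate 3, where all 13 were positive, as were 37.5% of all genes. Ak7, 1 of the 13 and not among the 5 that rose, entered the test only through its 12-week arrays. A higher level at 12 weeks was thus built into its selection. No ependymal, choroid plexus or meningeal gene was called with the block, fixed or random. Ccdc153, a protein of motile cilia, read -1.57, -1.76 and -1.56 at 6 weeks and -0.69, -0.64 and -0.84 at 12 weeks. The rise was 0.91 ± 0.12 (adjusted p = 0.0167), and 0.84 ± 0.18 with the block (adjusted p = 0.248). Dnali1, an axonemal dynein chain, rose by 0.61 ± 0.12, Tmem212 by 0.57 ± 0.11, Dynlrb2, a dynein light chain, by 0.51 ± 0.10 and Tekt1, a tektin of the axoneme, by 0.41 ± 0.07. Their changes against replicate 3 were 0.51, 0.40, 0.33 and 0.36. The second probe of Tekt1 changed by 0.35 with an adjusted p of 0.0506. Foxj1, the master factor of motile cilia, changed by 0.10 (adjusted p = 0.585).

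Of 18 choroid plexus genes, 3 rose and none fell, against 1.33% and 1.07% of all genes, with a median of 0.55 that was 0.28 against replicate 3. They were Aqp1, the water channel of its apical membrane (0.74 ± 0.16, adjusted p = 0.047), Cldn2, a claudin of its tight junctions (0.68 ± 0.15, adjusted p = 0.0451), and F5, coagulation factor V (0.65 ± 0.14, adjusted p = 0.0472; 0.0733 for its second probe). Their changes against replicate 3 were 0.62, 0.73 and 0.45. Ttr, its most abundant secreted product, changed by 0.62 with an adjusted p of 0.0829. Its 12-week values lay above all 6-week values, but 6-week replicate 2 was the lowest of the 6-week arrays for 17 of the 18 genes. The summed level of the list was 5.84 to 6.52 at 6 weeks and 6.58 to 6.88 at 12 weeks in the knockout, and 6.31 to 6.72 and 6.51 to 6.69 in wild type. Of 17 meningeal genes, 4 rose and none fell, against 1.33% and 1.07% of all genes, with a median of 0.43 that was 0.20 against replicate 3. These were Crabp2 (0.54 ± 0.09) and Aldh1a2 (0.65 ± 0.14), of retinoic acid handling and synthesis, Fmod, a proteoglycan (0.66 ± 0.14), and Islr (0.66 ± 0.13), while the collagen Col1a1 changed by -0.11 and Col3a1 by -0.44. Against replicate 3 the changes were 0.39 for Crabp2, 0.38 for Aldh1a2, 0.59 for Fmod and 0.59 for Islr. The summed level was 7.72 to 8.40 at 6 weeks and 8.39 to 8.45 at 12 weeks, which overlapped, and 6-week replicate 2 was the lowest of its age for 12 of the 17 genes. The part of a differing share of these linings in the samples was not tested. In the ependymal, choroid plexus and meningeal lists no member was called without 6-week replicate 1 or 2 or 12-week replicate 1 or 3. Without 12-week replicate 2 the rises were 2, 1 and 1 (1.17% of all genes), and without 6-week replicate 3 they were 7, 12 and 11 (16.7% of all genes).

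**Figure D4:**
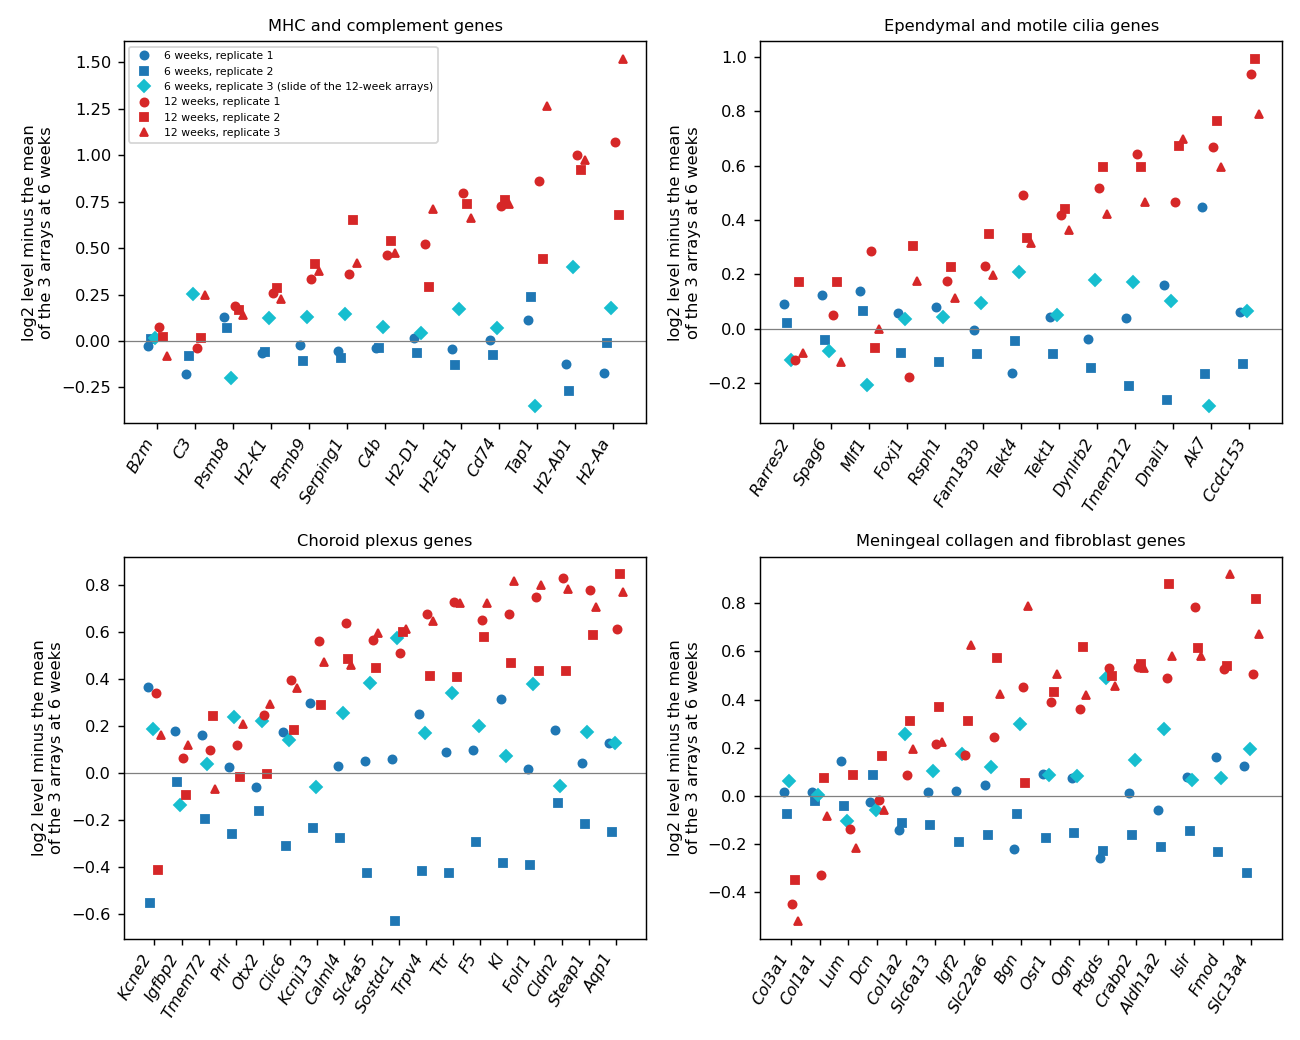
Level of each tested member of the MHC and complement, ependymal, choroid plexus and meningeal lists on each knockout array, as log2 difference from the mean of the 3 arrays at 6 weeks (vertical axis); points are single arrays. The 12-week arrays (red) lie above zero for most genes, and in the choroid plexus and meningeal panels 6-week replicate 2 (blue squares) is the lowest of its age for 17 of 18 and 12 of 17 genes.

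Of 8 erythroid genes 1 rose and none fell, against 1.33% and 1.07% of all genes. That was Hba-a2, an alpha globin, which read 6.72, 6.99 and 7.04 at 6 weeks and 8.17, 7.78 and 7.43 at 12 weeks (0.88 ± 0.19, adjusted p = 0.0455). The Beta-s globin probe read 0.74, 0.91 and 1.33 at 6 weeks and 2.55, 2.20 and 1.63 at 12 weeks (1.14 ± 0.26, adjusted p = 0.0498). Against replicate 3 the changes of Hba-a2 and Beta-s were 0.75 and 0.80. The probes of globin copies are near-identical, so the gene of origin is uncertain. The summed level of the list was 7.56 to 7.80 at 6 weeks and 8.12 to 8.83 at 12 weeks in the knockout, and 7.23 to 7.60 and 7.47 to 7.92 in wild type. The part of blood in the samples was not tested.

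Several genes outside the groups above, picked by the rule for named genes, rose by more than 1 log2 unit. Plin4, a lipid droplet coat protein, read -2.42, -2.18 and -1.72 at 6 weeks and 0.38, -0.36 and -0.33 at 12 weeks. It rose by 2.0 ± 0.22 (adjusted p = 0.00753), and by 1.61 ± 0.28 against replicate 3 (adjusted p = 0.161), with a wild-type change of 0.59 (adjusted p = 0.243). Plin4 was the 1 member of 17 glucocorticoid-responsive genes called, against 1.33% of all genes called higher. Fmo2, a flavin monooxygenase, rose by 1.55 ± 0.20 and Inmt, an indolethylamine methyltransferase, by 1.22 ± 0.20. Fmo2 was dim at 6 weeks, at -5.78, -5.29 and -5.45. The lowest signal well above background on those arrays was -6.78, -5.74 and -6.03, so the size of its rise is uncertain. The homeobox factor Six2 rose by 1.18 ± 0.24, and the small nucleolar RNA Snora47 by 1.43 ± 0.20. Against replicate 3 the changes were 1.5 for Fmo2, 1.03 for Inmt, 0.94 for Six2 and 0.90 for Snora47. Tox4 rose by 1.76 ± 0.32 on the probe tested, with a change of 1.57 against replicate 3, but its second probe changed by 0.01 (adjusted p = 0.966). The rule for named genes also picked Chrna5, a nicotinic receptor subunit, Trim72, Magea1 and Mnda as falls. These were above background at 6 weeks and not well above background on any 12-week array, so they entered the test only through the 6-week arrays and a lower level at 12 weeks was built into their selection. They were at least 1.84-fold, 1.84-fold, 1.32-fold and 1.22-fold higher at 6 weeks, given as a description.

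Neuronal and metabolic lists held few calls, and over all genes 1.33% were called higher and 1.07% lower. None of 29 glutamate receptor, 23 presynaptic, 24 potassium channel or 30 ribosomal protein genes was called, and none of the lists of striatal, cerebellar, cortical, thalamic or olfactory bulb neurons held a call. Gabra4, a GABA-A receptor subunit, fell by 0.33 ± 0.07 (adjusted p = 0.038), with a change of -0.21 against replicate 3. Of 11 perineuronal net genes, Hapln4, a link protein, rose by 0.72 ± 0.14 (adjusted p = 0.0376) and Acan, aggrecan, by 0.61 ± 0.12 (adjusted p = 0.0401). Against replicate 3 Hapln4 changed by 0.66, and Acan by 0.38 (adjusted p = 0.539). Vgf, a neuropeptide precursor and the 1 member of 29 called in its list, rose by 0.69 ± 0.12 (adjusted p = 0.0322), and its change against replicate 3 was 0.39 (adjusted p = 0.371). Hspb1 and Fkbp4 rose among 19 chaperones (0.80 ± 0.17 and 0.45 ± 0.09), Abcb1a and Pglyrp1 among 21 endothelial genes (0.34 ± 0.07 and 0.77 ± 0.13), Uqcrc1 among 29 respiratory genes (0.35 ± 0.07) and Pkm (Pkm2 in the files) among 18 glycolytic genes (0.49 ± 0.09). Against replicate 3 the changes were 0.57 for Hspb1, 0.34 for Fkbp4, 0.26 for Abcb1a, 0.57 for Pglyrp1, 0.23 for Uqcrc1 and 0.33 for Pkm. Glycolytic genes had a median of 0.24 that was -0.01 against replicate 3. The presynaptic genes likewise had 0.21 and -0.00.

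**Figure D5:**
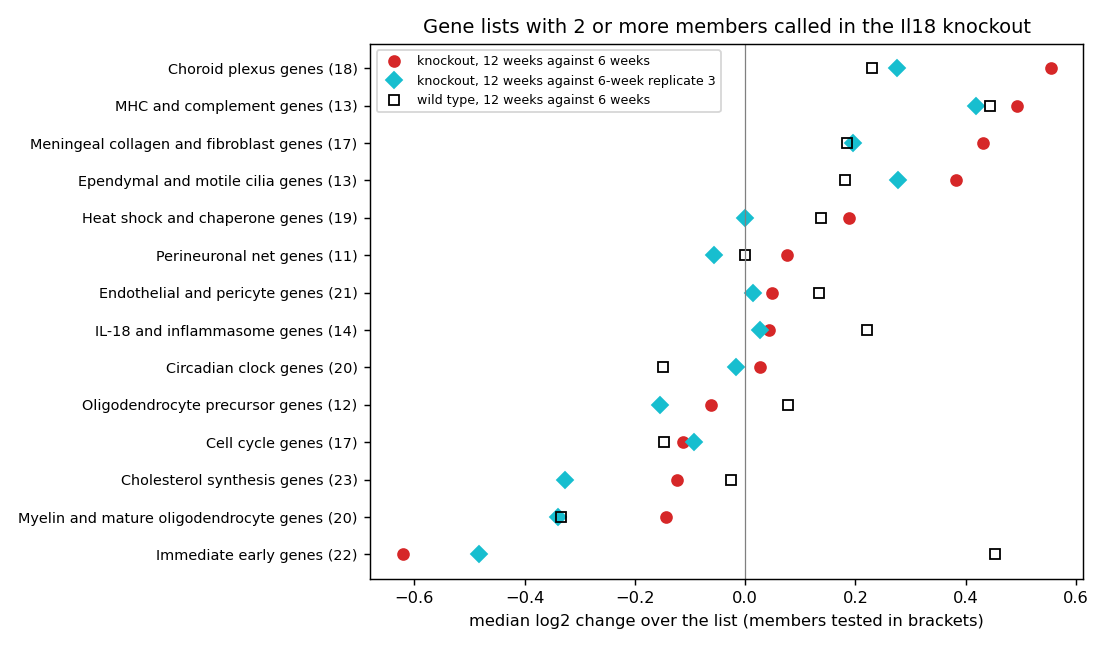
Median log2 change over each gene list with 2 or more members called, in the knockout between 12 and 6 weeks (red), in the knockout against 6-week replicate 3 (cyan) and in wild type (open squares). Immediate early genes lie at -0.62 and -0.48 in the knockout and 0.45 in wild type, myelin genes at -0.14, -0.34 and -0.33, and MHC and complement genes at 0.49, 0.42 and 0.45.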

How the data were processed

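The authors deposited scan files whose values are fluorescence intensities, per the file headers. The submitters' processing notes name Feature Extraction 10.7.3.1. The background-corrected (processed) intensity was used, with raw spot means and local backgrounds for one alternative. The other deposited columns, per the file headers, are flags for spots well above background, outliers and saturation. The deposited value table is the same intensity, within 0.4975%. Outlier spots were left out (107 to 220 of the 59305 non-control spots per array), and no non-control spot was saturated. The log2 processed signal minus the array's log2 75th percentile was taken, and spots of a probe were averaged. Probes well above background on all arrays of either knockout group were kept (36172 of 55681), with 1 probe per gene name, the brightest on average; 6889 genes had several. limma 3.58.1 (lmFit, eBayes) fitted 1 mean per group over 12 arrays (8 residual degrees of freedom, 7 with slide as a block); tests are two-sided, adjusted by Benjamini-Hochberg. The script was tested on simulated data. For 2 genes a knockout spot was left out as an outlier. Probe positions are mm9.

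The comparison, the 41 lists and the named genes were chosen with earlier results of these data known, so counts over a list are descriptions. Named genes were the 8 largest rises and falls among genes called, and the same among genes called also with the slide block. Up to 4 called members per list were added, those called with the block first, then by p. The 6 smallest p of the genotype difference, Il18 and the sex check genes completed them. Names that are only clone or accession numbers, and receptor and immunoglobulin segments, were left out of the largest changes and of the genotype difference. Genes named outside this rule were chosen after their values were seen. Same-numbered replicates of the 2 ages correlated at -0.152, -0.198 and -0.00481, so the numbers did not pair samples. Promoters are RefSeq's (GRCm38.p6). The number of arrays and the distance from background limit the precision. Some genes of the lists and of the named-gene rule are counted but not reported here by name.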

Additional observations from a re-analysis of the deposited data

Results flagged for a closer look

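Of the 16 genes whose age change differed between the genotypes in a test of the difference itself, the 6 with the smallest p are given (limma with slide as a block; positive values mean a higher change in the knockout). Atf3, -2.68 ± 0.19 (SE; adjusted p = 0.00219), fell in the knockout and rose in wild type. Arntl, -0.73 ± 0.08 (adjusted p = 0.0261), did the same. Mical1, 2.29 ± 0.11 (adjusted p = 9.83e-05), read 0.97 to 1.16 on all 6 knockout arrays and 0.90 to 1.01 in wild type at 6 weeks, and -1.44, -1.35 and -1.29 in wild type at 12 weeks. Erdr1, 6.27 ± 0.64 (adjusted p = 0.0194), read 3.38 to 4.91 in the knockout, 3.71 to 5.23 in wild type at 6 weeks and -1.55 to -0.71 in wild type at 12 weeks. Nnt, 0.91 ± 0.10 (adjusted p = 0.0194), read 2.29 to 2.5 in the knockout, 2.06 to 2.08 in wild type at 6 weeks and 1.05, 1.19 and 1.05 in wild type at 12 weeks. Mical1, Erdr1 and Nnt thus set the 12-week wild-type arrays apart, and their changes in the knockout were not called. Depdc7, -2.29 ± 0.24 (adjusted p = 0.0194), rested on the 1 knockout array at -2.36.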

How the results depend on the processing

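With the slide as a random block 16 genes were called for age in the knockout, with the slide column as a block 367, with normexp 1026, with no filter on dim probes 36, with probes above background on all 12 arrays 995, with trend and robust 1975, with array weights 9626 and with at least 1.5-fold 246. With slide as a fixed block the count was 12, and with the 6 knockout arrays alone 0. Median scaling gave 531, 405 higher and 126 lower. With replicate number as a block it was 212. Whether the replicate numbers pair the samples is not known. Leaving out 1 array gave 15 to 7420, the most without 6-week replicate 3, where age and slide cannot be told apart.

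Against replicate 3, 0 genes were called on the 4 arrays of slide 2 (1809 at an unadjusted p under 0.05), 1 with the replicate block, 7 with median scaling, 31 without the filter, 20 over every probe, 28 with trend and robust and 19 with array weights. Leaving out 1 array gave 2 to 7, and without replicate 3 this comparison could not be fitted.

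The genotype difference was called for 6 genes with the replicate block, 29 with normexp, 27 with probes above background on all arrays, 42 with trend and robust, 42 with array weights and 62 without the slide block, and for 4 to 17 leaving out 1 array. Wild-type age was called for 76 with the replicate block, 282 with quantile normalization, 59 without the filter, 285 with trend and robust, 703 with array weights, 432 with slide as a block and 110 with at least 1.5-fold, and for 33 to 79 leaving out 1 array.

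Knockout changes that were not called turned sign for Mical1 (-0.029 with slide as a block and on slide 2 alone, -0.023 with normexp), Nnt (-0.059 with slide as a block and on slide 2 alone) and Il18 (0.007 with median scaling, and -0.063 to 0.004 leaving out 1 array). The causes were not tested. Medians of the immediate early, myelin, cholesterol, MHC, ependymal, choroid plexus and meningeal lists kept their sign under quantile, median and normexp settings.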
